A study of Homo sapiens with 9 samples.

Results

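Among the genes whose transcripts fell most consistently in A375 melanoma cells under TP-472, 6 encode no component of the extracellular matrix: C10orf10, TOX2, KIAA1755, CTNNAL1, CDCA7L and GRK6. They are 6 of the 26475 gene symbols in the count table and 6 of the 16417 that passed the filter on low counts. All 6 passed it, and were chosen by name, from their fall against DMSO in this table and the shape of that fall across doses, with no numerical threshold. Their levels, their changes against DMSO and the step between doses are therefore a description without a test. A375 is an established human melanoma line. TP-472, which blocks the bromodomains of BRD9 and BRD7, was given for 24 h at 5 µM or at 10 µM, with the vehicle DMSO alone as control, and 3 biological replicates per group were sequenced, 9 libraries in all. Both doses were compared with the same 3 DMSO libraries.

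BRD7 and BRD9 are subunits of SWI/SNF chromatin-remodelling complexes, which move nucleosomes and so help to set which promoters and enhancers are open to transcription factors. Bromodomains bind acetylated lysines, and an inhibitor such as TP-472 occupies that pocket. The 6 genes belong to no common pathway. TOX2 is an HMG-box DNA-binding protein known from lymphocyte development, and CDCA7L is a nuclear protein that binds MYC and the chromatin tether PSIP1 (LEDGF). GRK6 is a kinase that phosphorylates activated G protein-coupled receptors so that arrestins bind them. CTNNAL1 encodes alpha-catulin, a relative of alpha-catenin and vinculin. C10orf10, now named DEPP1, is a target of FOXO transcription factors that has been linked to autophagy. KIAA1755 is named only for its cDNA, and no role is given for it here.

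The libraries held 42483091 to 51298130 counts each. The melanoma lineage genes SOX10, MITF and MIA were present in every library, SOX10 at 363 to 426 CPM (counts scaled to the library total). S100B was lower, at 5.33 to 9.38 CPM, and PMEL was at 0.968 to 2.87 CPM. MLANA reached at most 0.346 CPM and DCT at most 0.0192 CPM, and TYR was at 0 in all 9. Of the markers of other cell types, PTPRC and EPCAM stayed below 1 CPM and PECAM1 ranged from 0.760 to 2.12 CPM. One library stood apart. In 10 µM replicate 1, length and GC content of the transcripts together explained 10.3% of the variance of the deviations from the group means, against 4.41% and 5.10% in the other two 10 µM libraries and at most 0.449% in the DMSO and 5 µM libraries. The share of counts from ribosomal RNA genes was 8.79% to 10.9% in DMSO libraries, 10.6% to 16.6% in those at 5 µM and 8.20% to 19.9% in those at 10 µM. The part of these differences in the values below was not tested beyond the fits that leave out 1 library, remove the trend with length and GC content, or drop ribosomal RNA genes.

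In DMSO the 6 genes covered a wide range of abundance. Per kilobase of exonic sequence, CTNNAL1 was the most abundant at 32.1 ± 1.14 CPM/kb (SD, n = 3). CDCA7L followed at 17.7 ± 0.141 CPM/kb, GRK6 at 10.2 ± 0.337 CPM/kb and TOX2 at 8.61 ± 0.407 CPM/kb. KIAA1755 and C10orf10 were lowest, at 3.66 ± 0.0574 and 2.71 ± 0.218 CPM/kb. No 2 neighbours in this order overlapped in their DMSO libraries. These levels ran from the 43.4th percentile of the tested genes for C10orf10 to the 92.0th for CTNNAL1. At 10 µM the libraries of C10orf10 and KIAA1755 overlapped, at means of 0.246 and 0.363 CPM/kb.

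All 6 TP-472 libraries lay below all 3 DMSO libraries for each of the 6 genes, a pattern that 18.3% of all genes tested showed. With calls set at an adjusted p under 0.05 and a change of 1.5-fold or more, the 6 genes were among the 447 called lower at 5 µM (2.72% of genes tested) and among the 1730 called lower at 10 µM (10.5%). Since the genes were chosen on these comparisons, nothing is read from those counts. The same holds for their places in order of p with both doses pooled against DMSO, which restate that choice. There C10orf10 stood first of the 7906 genes with a lower level, and CTNNAL1, TOX2, CDCA7L and GRK6 stood at 10, 11, 12 and 13. KIAA1755 stood at 29. Ordered by the size of the fall they were far apart, from place 8 for C10orf10 and 15 for KIAA1755 to 1094 for CTNNAL1 and 1152 for GRK6. RNA from a whole culture cannot tell a lower level in every cell from a loss in some of them.

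**Figure D1:**
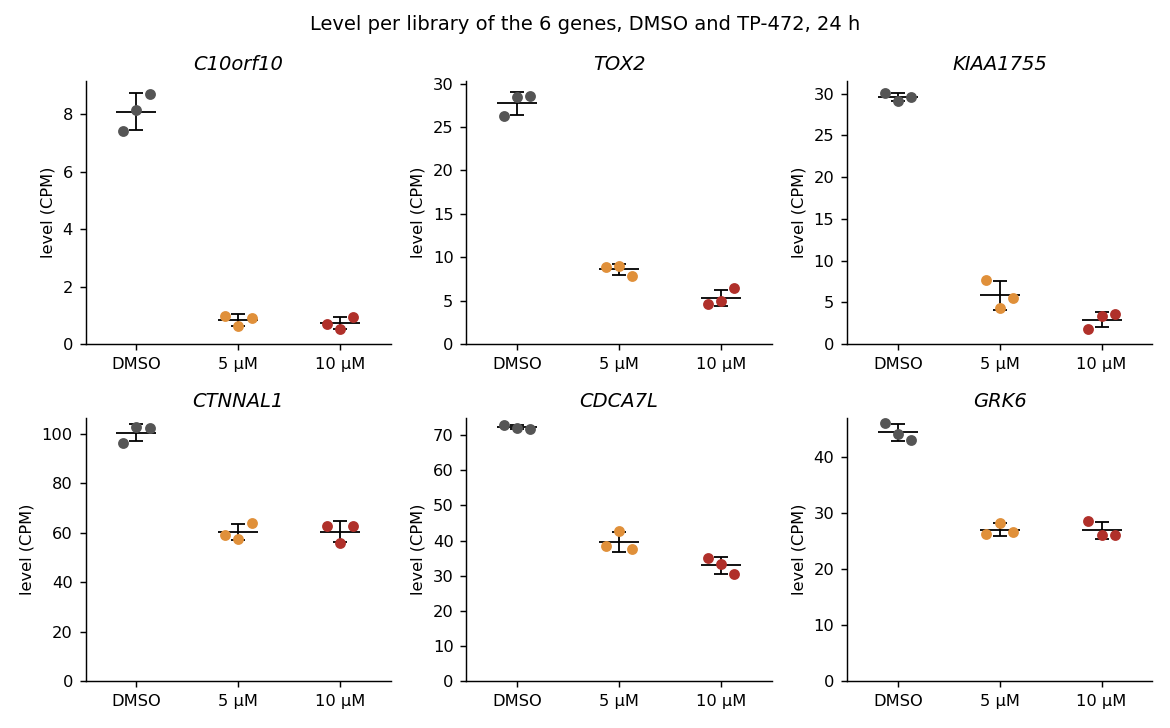
Level of each gene in CPM (vertical axes, each starting at 0) in the 3 libraries of DMSO, 5 µM and 10 µM TP-472 (points), with the group mean and SD. The 2 doses overlap for C10orf10, CTNNAL1 and GRK6, whereas TOX2, KIAA1755 and CDCA7L lie lower in every 10 µM library than in any 5 µM library.

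C10orf10 showed the deepest fall of the 6 at 5 µM, and at 10 µM it stood beside KIAA1755. Its level was 7.41, 8.15 and 8.70 CPM in the DMSO libraries, 0.986, 0.620 and 0.924 CPM at 5 µM, and 0.702, 0.538 and 0.958 CPM at 10 µM. The treated libraries thus formed a single low range at either dose, and the 2 doses overlapped. The group means were 8.08 ± 0.650, 0.843 ± 0.196 and 0.733 ± 0.211 CPM (SD, n = 3 each), so that 10.4% of the DMSO level was left at 5 µM and 9.06% at 10 µM. The log2 fold changes against DMSO were -3.26 (SE 0.27) and -3.46 (SE 0.27). Without 10 µM replicate 2 the 10 µM value was -3.28, short of the -3.44 of KIAA1755 in the same fit. These low levels rest on few reads, 32 to 45 counts per library at 5 µM and 28 to 47 at 10 µM, against 368 to 396 for DMSO.

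C10orf10 lies at chr10:44970981-44978810 on the minus strand (hg38, GENCODE 29). Of its exonic length, 695 bases (23.3%) are also exonic in RASSF4, a Ras-association domain gene on the opposite strand. The libraries were made strand-specific, but the sources used here do not say whether the counting used strand. The estimated counts of C10orf10 were whole numbers in all 9 libraries. A part of RASSF4 reads in them was not tested. RASSF4 itself went from 6.67 ± 0.277 CPM in DMSO to 4.41 ± 0.995 at 5 µM and 4.04 ± 1.01 at 10 µM (SD, n = 3 each). Its fall was called at 10 µM (log2 fold change -0.73, SE 0.23, adjusted p = 0.0314 by edgeR's quasi-likelihood test) and not at 5 µM (-0.60, adjusted p = 0.131). The call was lost when any DMSO library or 10 µM replicate 2 was left out (adjusted p = 0.0719 to 0.0916).

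GRK6 and CTNNAL1 fell by a smaller factor, to levels that overlapped between the doses. GRK6 was at 46.0, 44.2 and 43.1 CPM in DMSO, 26.2, 28.3 and 26.6 CPM at 5 µM, and 28.6, 26.1 and 26.0 CPM at 10 µM. No treated library came near the DMSO range, and the doses overlapped fully. The means were 44.4 ± 1.47, 27.0 ± 1.10 and 26.9 ± 1.46 CPM (SD, n = 3 each), with 60.8% of the DMSO level at 5 µM and 60.6% at 10 µM, and log2 fold changes of -0.72 (SE 0.08) at each dose.

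CTNNAL1 was at 96.5, 103 and 103 CPM in DMSO, 59.2, 57.6 and 63.9 CPM at 5 µM, and 62.8, 55.7 and 62.9 CPM at 10 µM. Again the treated libraries shared a single range below DMSO. Means of 101 ± 3.57, 60.2 ± 3.27 and 60.5 ± 4.15 CPM (SD, n = 3 each) left 59.9% and 60.1% of the DMSO level, at log2 fold changes of -0.74 (SE 0.08) and -0.73 (SE 0.08). CTNNAL1 lies at chr9:108942569-109013529 on the minus strand and shares no exonic base with another annotated gene. GRK6, at chr5:177403204-177442901 on the plus strand, shares 399 exonic bases (9.16%) with F12 (coagulation factor XII) and 99 (2.27%) with PRR7-AS1, both on the opposite strand. F12 stood at 6.79, 6.31 and 6.31 CPM on average in the 3 groups, far below GRK6.

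TOX2 fell at 5 µM and further at 10 µM. Its level was 26.2, 28.5 and 28.6 CPM in DMSO, 8.89, 9.01 and 7.90 CPM at 5 µM, and 4.59, 4.94 and 6.42 CPM at 10 µM, which put the 3 groups in 3 separate ranges. The means were 27.8 ± 1.31, 8.60 ± 0.607 and 5.32 ± 0.972 CPM (SD, n = 3 each), or 31.0% and 19.2% of DMSO, and the log2 fold changes against DMSO were -1.69 (SE 0.13) and -2.38 (SE 0.14). TOX2 lies at chr20:43914864-44069616 on the plus strand, with no exonic overlap.

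KIAA1755 also fell in both steps. It stood at 30.1, 29.2 and 29.6 CPM in DMSO, 7.69, 4.28 and 5.52 CPM at 5 µM, and 1.88, 3.35 and 3.57 CPM at 10 µM. The DMSO libraries were nearly identical, with a coefficient of variation of 1.57%, while the treated ones scattered by 29.6% at 5 µM and 31.3% at 10 µM. The means of 29.6 ± 0.464, 5.83 ± 1.73 and 2.93 ± 0.916 CPM (SD, n = 3 each) left 19.7% and 9.90% of the DMSO level, at log2 fold changes of -2.35 (SE 0.25) and -3.33 (SE 0.26). The lowest 10 µM value came from replicate 1, the library that stood apart. KIAA1755 lies at chr20:38210488-38260772 on the minus strand, with no exonic overlap.

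CDCA7L fell less deeply than TOX2 and KIAA1755, with a smaller step between doses. In the share of its 10 µM log2 fall reached at 5 µM (76.3%) it stood near them (70.9% and 70.4%). It was at 72.9, 72.0 and 71.8 CPM in DMSO, 38.5, 42.8 and 37.6 CPM at 5 µM, and 35.0, 33.3 and 30.4 CPM at 10 µM. Most of the fall was in place at 5 µM, and each 10 µM library was a little lower than every 5 µM library. The means were 72.2 ± 0.574, 39.6 ± 2.81 and 32.9 ± 2.34 CPM (SD, n = 3 each), 54.9% and 45.5% of DMSO, with log2 fold changes of -0.87 (SE 0.08) and -1.13 (SE 0.08). CDCA7L, at chr7:21900900-21946084 on the minus strand, shares 833 exonic bases (20.4%) with the dynein heavy chain gene DNAH11 on the opposite strand, which was at 3.82 to 5.66 CPM on average in the 3 groups. CDCA7L is the only one of the 6 whose estimated counts were not whole numbers. The source of these fractions was not tested.

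**Figure D2:**
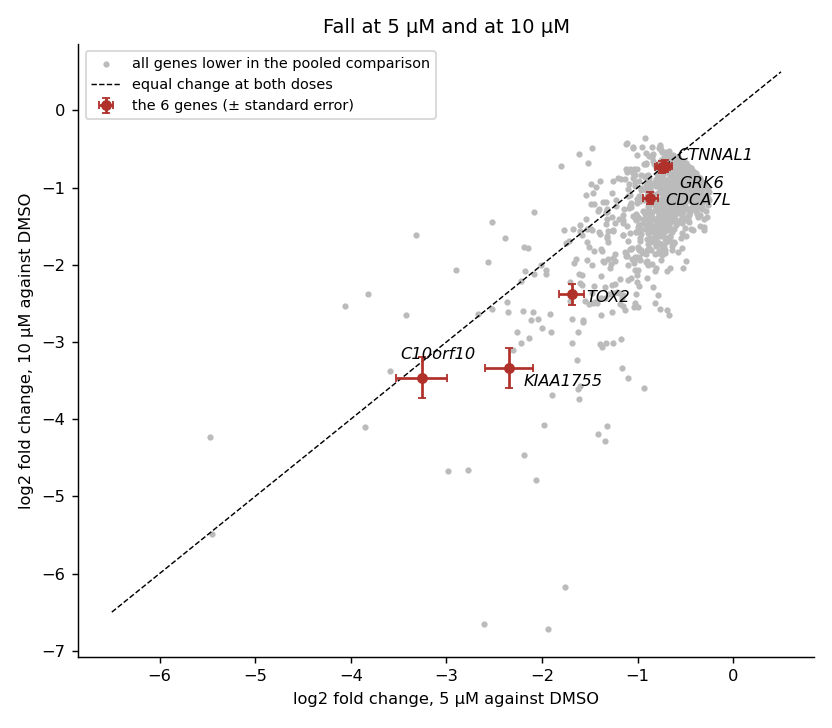
Log2 fold change against DMSO at 5 µM (horizontal axis) and at 10 µM (vertical axis) for the 6 genes (labelled, with standard errors) and for the genes lower than DMSO by 1.5-fold or more at an unadjusted p under 0.05 with both doses pooled (grey). Points on the diagonal have the same fall at both doses, and C10orf10, CTNNAL1 and GRK6 lie close to it while TOX2, KIAA1755 and CDCA7L lie below. Both axes use the same DMSO libraries.

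The step from 5 µM to 10 µM is given with its interval as a description, since the genes were listed with their dose shape in view. For TOX2 the step was -0.69 on the log2 scale (SE 0.13, 95% interval -0.99 to -0.40), a further 1.62-fold decrease. For KIAA1755 it was -0.99 (SE 0.25, interval -1.55 to -0.43), a further 1.98-fold decrease. The 10 µM libraries of 3 of the 6 genes lay entirely below the 5 µM libraries, against 16.2% of all genes tested. TOX2 and KIAA1755, 2 of the 6, were within the limits on adjusted p and fold that 425 of all genes tested met (2.59%), and nothing is read from either count.

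Single libraries moved both steps. Without 10 µM replicate 1 they shrank, to -0.60 for TOX2 and -0.75 for KIAA1755. TOX2 no longer met the limits without 5 µM replicate 1 (-0.67) or 5 µM replicate 2 (-0.66). KIAA1755 no longer met them when any one of the 3 DMSO libraries, 5 µM replicate 1, 5 µM replicate 3 or 10 µM replicate 2 was left out. Its step stayed between -1.17 and -0.74 over all 9 such fits. The DMSO libraries bear on a step between doses only through the filter, the scaling and the spread estimated over all libraries.

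For CTNNAL1 the step was 0.0057 (SE 0.08, 95% interval -0.17 to 0.18), a change between doses of -11.2% to 13.5%. For GRK6 it was -0.0069 (SE 0.08, interval -0.18 to 0.17), or -11.7% to 12.2%. A step as large as that of TOX2 lies outside both intervals. C10orf10 was measured less closely, with a step of -0.20 (SE 0.27) and an interval of -0.80 to 0.40 that takes in the step of TOX2. Its dose shape beyond 5 µM was therefore not resolved.

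CDCA7L had a step of -0.27 (SE 0.08, 95% interval -0.45 to -0.08), a change of -27.0% to -5.65%. In the fit of all 9 libraries this step met neither the limit on fold nor that on adjusted p. It was -0.32 without 10 µM replicate 1, -0.26 with DESeq2 and -0.29 with the trend in length and GC content removed, and stayed under 1.5-fold in each of these fits.

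**Figure D3:**
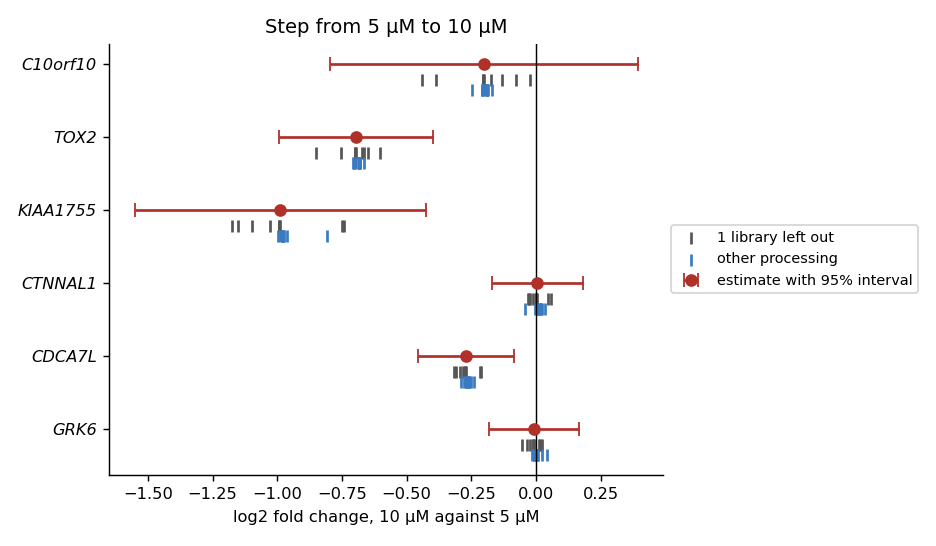
Step from 5 µM to 10 µM (log2 fold change, horizontal axis) for each gene, with its 95% interval from edgeR's fit of all 9 libraries (red), the estimates with 1 library left out (grey ticks) and those under other processing (blue ticks). The intervals of TOX2, KIAA1755 and CDCA7L lie below 0, and those of CTNNAL1 and GRK6 are narrow and centred near 0, while that of C10orf10 is wide. The intervals are not adjusted for the number of genes tested, and the CDCA7L step was outside the limits used for all genes. The genes were listed with their dose shape known, so the intervals are a description and not a test.

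The share of the 10 µM log2 fall already reached at 5 µM ranged from 70.4% to 101% over the 6 genes. It was 94.2% for C10orf10, 99.0% for GRK6 and 101% for CTNNAL1, against 76.3% for CDCA7L, 70.9% for TOX2 and 70.4% for KIAA1755. Over the 1113 genes lower by 1.5-fold or more at an unadjusted p under 0.05 with both doses pooled against DMSO, the median share was 58.2%, with quartiles of 46.3% and 74.2%. All 6 genes stood in the upper part of this distribution, from the 71.3rd percentile for KIAA1755 to the 90.7th for CTNNAL1. They were listed for a consistent fall over both doses and with their dose shape known, so nothing is read from these places. A share of at least 95% was found in 133 of the 1113 genes (11.9%), CTNNAL1 and GRK6 among them. Of the 1113, 287 (25.8%) were called lower at 10 µM than at 5 µM.

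For each gene the 250 bases just before its RefSeq start (GRCh38.p14) were read, in 7 windows, since TOX2 has 2 starts. These starts are not always the ends of the GENCODE gene spans given above. The windows of GRK6 and TOX2 lie wholly inside those spans. They are therefore upstream of a RefSeq start and not of the whole span. Windows are shown for C10orf10 and GRK6, the 2 genes with a match to a FOXO motif, and for KIAA1755 and CTNNAL1, the 2 most GC-rich. Capitals mark every match, on either strand, to any of 8 motifs. FOXO factors were searched for as TGTTTAC and the TEAD factors of the Hippo pathway as GGAATG. The GC box bound by Sp factors was searched for as GGGCGG and the TATA box as TATAAA. The cell cycle element CHR was taken as TTTGAA, the AP-1 site as TGANTCA, the E-box of MYC and related factors as CACGTG, and the ETS site as CCGGAA. The windows are chr10:44978810-44979059 (minus strand) for C10orf10, chr5:177426426-177426675 (plus) for GRK6, chr20:38260736-38260985 (minus) for KIAA1755 and chr9:109013500-109013749 (minus) for CTNNAL1, each written 5′ to 3′ on the gene's strand.
C10orf10: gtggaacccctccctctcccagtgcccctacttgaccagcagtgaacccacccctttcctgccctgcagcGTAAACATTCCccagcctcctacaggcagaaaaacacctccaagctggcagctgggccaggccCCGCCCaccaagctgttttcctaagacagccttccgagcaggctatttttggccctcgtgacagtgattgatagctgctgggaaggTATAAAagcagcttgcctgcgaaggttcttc
GRK6: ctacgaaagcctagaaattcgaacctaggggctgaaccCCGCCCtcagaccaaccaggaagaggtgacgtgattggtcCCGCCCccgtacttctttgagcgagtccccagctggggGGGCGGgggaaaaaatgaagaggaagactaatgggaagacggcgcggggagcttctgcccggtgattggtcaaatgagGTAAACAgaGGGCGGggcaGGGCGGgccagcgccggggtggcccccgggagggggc
KIAA1755: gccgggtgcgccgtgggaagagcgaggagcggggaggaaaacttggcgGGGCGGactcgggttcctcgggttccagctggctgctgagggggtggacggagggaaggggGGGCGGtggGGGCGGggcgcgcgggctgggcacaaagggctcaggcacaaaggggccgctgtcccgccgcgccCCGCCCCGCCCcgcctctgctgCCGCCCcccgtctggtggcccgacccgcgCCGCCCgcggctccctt
CTNNAL1: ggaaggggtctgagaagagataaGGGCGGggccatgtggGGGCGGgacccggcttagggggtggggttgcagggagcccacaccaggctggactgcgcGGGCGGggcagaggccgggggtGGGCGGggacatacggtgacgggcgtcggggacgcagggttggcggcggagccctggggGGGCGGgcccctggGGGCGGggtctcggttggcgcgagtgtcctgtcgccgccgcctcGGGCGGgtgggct

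The C10orf10 window holds GTAAACA, the FOXO letters on the other strand, at position -180 from the start, where it overlaps a TEAD match at -175. It also has a GC box at -117 and a TATA box at -31. GRK6 has the same FOXO letters at -56, beside 5 GC boxes. FOXO letters were found in 2.98% of the 35116 upstream windows of 27305 genes, TEAD letters in 11.9% and a TATA box in 10.7%. KIAA1755 and CTNNAL1 each carry 7 GC boxes, at 78.0% and 76.4% GC, against a median of 58.0% over all windows. At least 1 GC box was present in 5 of the 6 genes, TOX2 being the exception, and in 42.6% of all windows. The first TOX2 start has a TEAD and a CHR match and the second a TATA box. No AP-1, E-box or ETS letters occurred in any of the 7 windows, and all these matches describe letters, not occupied sites.

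Relatives and partners of the 6 genes were examined next, 38 genes in 5 lists of which 33 were tested. Against DMSO at 5 µM, 2 of the 33 were called lower and none higher, where 2.72% and 2.14% of all genes tested were. At 10 µM, 8 were called lower and 3 higher, where the shares of all genes tested were 10.5% and 8.57%. In the step from 5 µM to 10 µM, 2 were called lower and 2 higher, against 2.59% and 1.42% of all genes tested. Both lower calls of the step, VCL and PDK4, went under the 1.5-fold limit without 10 µM replicate 1, at -0.44 and -0.58. The VCL call was also lost when any 5 µM library was left out (adjusted p = 0.0789 to 0.0882 by edgeR's quasi-likelihood test). That of PDK4 was lost without 5 µM replicate 1 (adjusted p = 0.0855) or 5 µM replicate 3 (0.0678). The median log2 fold change of the 33 was -0.18 at 5 µM and -0.16 at 10 µM, against 0.0054 and 0.011 over all genes tested. Neither TOX family member tested was called at either dose. TOX4, the more abundant, stood at 50.7 ± 1.35, 54.3 ± 2.60 and 62.8 ± 1.92 CPM in DMSO, 5 µM and 10 µM (SD, n = 3 each).

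For CTNNAL1, 6 of 8 genes of its catenin and vinculin list were tested and 1 was called. VCL (vinculin), which ties adhesion sites to actin, fell at 10 µM (log2 fold change -1.01, SE 0.13, adjusted p = 3.55e-04 by edgeR's quasi-likelihood test). Without 10 µM replicate 1, which had the lowest VCL level, it was called at -0.85. CTNNA1 (alpha-catenin) stood at 424 ± 1.14, 422 ± 9.90 and 419 ± 36.9 CPM (SD, n = 3 each).

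Of the 5 tested CDCA7 family members and partners of CDCA7L, 2 were called lower at 10 µM and none at 5 µM. CDCA7, the closest named relative, which acts with the remodeller HELLS, had a log2 fold change of -0.81 (SE 0.11, adjusted p = 5.08e-04 by edgeR's quasi-likelihood test). PSIP1, the chromatin tether that CDCA7L binds, had -0.86 (SE 0.07, adjusted p = 1.03e-05). At 5 µM their values were -0.34 and -0.51, where CDCA7L itself was at -0.87.

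For GRK6, 6 of 8 receptor kinases and arrestins were tested, and ARRB1 (beta-arrestin 1), which binds receptors that such kinases have phosphorylated, was called lower at 10 µM (-0.64, SE 0.09, adjusted p = 5.33e-04 by edgeR's quasi-likelihood test). None was called at 5 µM, and ARRB1 was under the 1.5-fold limit without 10 µM replicate 3 (-0.58). The kinases ADRBK1 (GRK2) and GRK5 had log2 fold changes of -0.52 and 0.38 at 10 µM, below the 1.5-fold limit and in opposite directions.

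All 14 FOXO factors and targets were tested, and they moved in both directions. CDKN1B, the cyclin-dependent kinase inhibitor p27, was called lower at both doses (-0.67 and -0.62, adjusted p = 9.57e-04 and 3.66e-04 by edgeR's quasi-likelihood test), though at 10 µM not without 10 µM replicate 3 (-0.58). TXNIP, which binds thioredoxin, was called lower at 5 µM only (-0.84, adjusted p = 9.19e-05) and higher at 10 µM than at 5 µM (0.70, adjusted p = 3.91e-04). At 10 µM FOXO3 itself, the catalase gene CAT and the pyruvate dehydrogenase kinase PDK4 were called lower (-0.65, -0.91 and -0.92, adjusted p = 0.0139, 1.30e-05 and 0.00161). The FOXO3 value was -0.45, under the 1.5-fold limit, without 10 µM replicate 1. SESN3 (a sestrin), IRS2 (an insulin receptor adaptor) and CITED2 (a transcriptional co-regulator) were called higher at 10 µM (0.70, 0.68 and 1.11, adjusted p = 0.0155, 8.38e-04 and 1.05e-05). SESN3 lost its call without DMSO replicate 1 (adjusted p = 0.0626), DMSO replicate 3 (0.0566) or 10 µM replicate 3 (0.47, under the limit). C10orf10, listed for its fall, was at -3.26 and -3.46, and a part of FOXO factors in that fall was not tested.

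**Figure D4:**
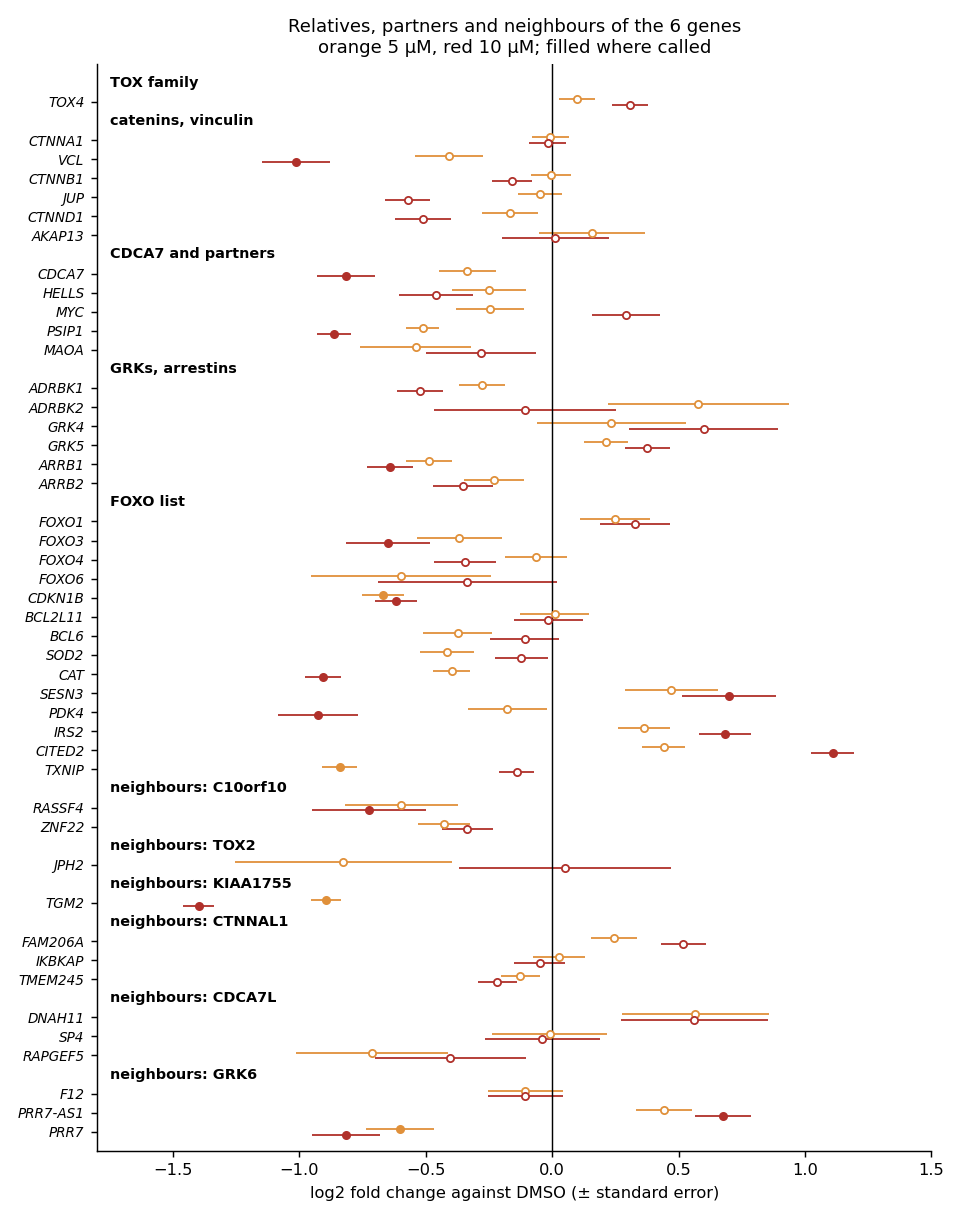
Log2 fold change against DMSO at 5 µM and 10 µM (horizontal axis) of the tested relatives, partners and neighbouring genes with at least 1 CPM in DMSO, grouped by the gene they belong to, with their standard errors and filled points where a gene was called. Most lie within 1.5-fold of 0, and TGM2, VCL and CITED2 are the ones past a log2 change of 1 in size at 10 µM.

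Genes that overlap or adjoin the 6 on the chromosome numbered 21, of which 14 were tested. Against DMSO, 2 were called lower at 5 µM (2.72% of all genes tested were), and 3 lower and 1 higher at 10 µM (10.5% and 8.57% of all genes tested were). TGM2 (transglutaminase 2, a protein cross-linking enzyme), 43910 bp from KIAA1755, went from 904 ± 14.6 CPM to 486 ± 12.0 and 343 ± 12.6 CPM (SD, n = 3 each). It was called lower at both doses (-0.90 and -1.40, adjusted p = 3.02e-05 and 4.04e-07 by edgeR's quasi-likelihood test). PRR7, a membrane adaptor gene 3544 bp from GRK6, was called lower at both doses too (-0.60 and -0.82, adjusted p = 0.0197 and 0.00130). Its 5 µM call was lost when any DMSO library, 5 µM replicate 1 or 5 µM replicate 3 was left out (adjusted p = 0.0619 to 0.0925), and its 10 µM call was not lost with any library left out. In contrast, PRR7-AS1, which overlaps GRK6, was called higher at 10 µM (0.68, adjusted p = 0.00127). RASSF4, described above, is the third neighbour called lower at 10 µM. No tested neighbour of TOX2, CTNNAL1 or CDCA7L was called at either dose.

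The genes most like each of the 6 were those with the smallest root mean square difference in log2 level, centred on DMSO, over the 9 libraries. GRK6 and CTNNAL1 shared their 2 closest patterns, PLIN2 (a lipid droplet coat protein) and CENPH (a kinetochore protein), at differences of 0.0535 and 0.0543 for GRK6 and 0.0629 and 0.0790 for CTNNAL1. They were also close to each other, at 0.0863, the smallest distance among the 6, whereas C10orf10 and GRK6 were farthest apart at 2.07. CDCA7L was nearest to MARCKS (an actin-binding protein kinase C substrate) at 0.0740, then to SH3D21 at 0.0922 and CXCL8 (interleukin-8) at 0.0970. For GRK6 the third gene was CDKN1B, at 0.0715.

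The patterns of the deeper falls had looser matches. TOX2 was nearest to PRSS33 (a serine protease) at 0.177, B3GNT7 (a glycosyltransferase) at 0.236 and COL8A1 (a collagen chain) at 0.270. For KIAA1755 they were KLRC2 (a natural killer cell receptor) at 0.381, BGN (biglycan) at 0.415 and COL6A3 (a collagen chain) at 0.457. C10orf10 was nearest to ITGA9 (an integrin chain) at 0.436, KIAA1755 at 0.531 and BGN at 0.625. Likeness is a description of these 9 libraries, which all genes share.

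**Figure D5:**
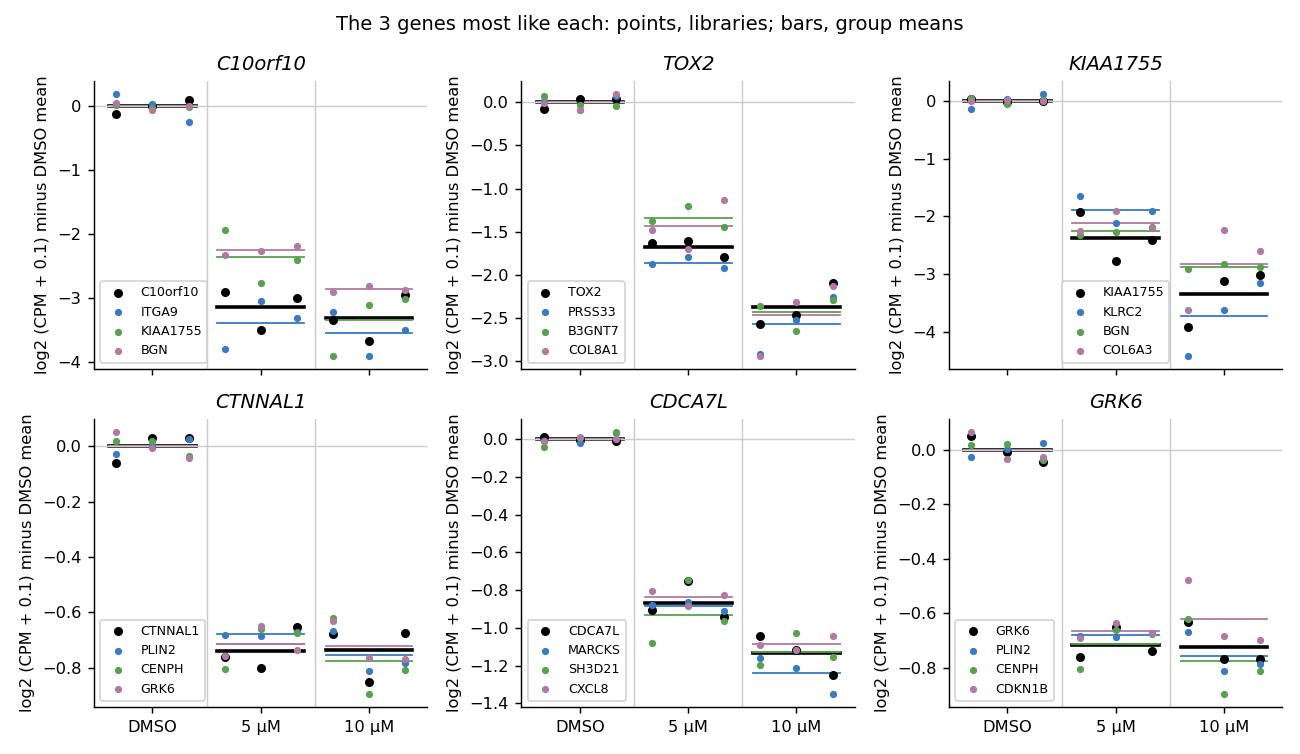
Log2 (CPM + 0.1) minus the DMSO mean (vertical axes, scaled for each panel) in the 3 libraries of DMSO, 5 µM and 10 µM for each gene (black) and the 3 genes with the smallest root mean square difference from it (colours), with bars at the group means. The near genes lie close to CTNNAL1, CDCA7L and GRK6 and farther from C10orf10, TOX2 and KIAA1755. The measure joins depth of fall with dose shape, so near genes can differ in their step between doses. Near C10orf10 (step -0.20), ITGA9 had a step of -0.25, but KIAA1755 and BGN had -0.99 and -0.61.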

How the data were processed

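RNA from A375 cells treated for 24 h with DMSO, 5 µM or 10 µM TP-472 was sequenced by RNA-seq, with 3 libraries per group assigned from the sample titles. The deposited values are the authors' expected counts (RSEM's estimated counts, not scaled), by gene symbol. Bowtie2 2.1.0, RSEM 1.2.15 and hg38 are named in the submitters' processing notes. The sources used here name no annotation, strand setting or filter for the counting. Per the labels mRNA was selected with oligo-dT beads, whereas the series' design text names ribosomal RNA depletion. In a library, 10.6% to 13.8% of values were not whole. No 2 libraries of a group agreed within sampling noise (chi-square per degree of freedom 3.89 to 139).

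Counts were rounded and fitted with edgeR 4.0.16 (R 4.3.3), with TMM factors (0.957 to 1.029), the filterByExpr filter (16417 of 26475 symbols left) and the quasi-likelihood F test over all 9 libraries, with Benjamini-Hochberg adjustment over all genes tested. Calls needed an adjusted p under 0.05 and a change of 1.5-fold or more. Standard errors divide the absolute log2 fold change by the root of F, and CPM used TMM-scaled totals. Symbols were matched to GENCODE 29 (24602 of 26475). The likeness measure took log2(CPM + 0.1) of tested genes averaging 1 CPM or more. The 6 genes, the lists of relatives and the dose shapes were chosen with earlier results of these data known, and the TATA box was added to the motifs after the sequences were seen. The step between doses was planned as a test of the 6 genes and is given without p-values for that reason. Named besides the 6 were list members that were called or closest to one of the 6, overlapping and adjoining genes, and the 3 nearest patterns. A protein comparison planned for naming relatives was not run, as no protein sequences were used here.

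Alternatives were RLE or upper-quartile scaling, no filter or a 1 CPM filter, DESeq2 1.42.0, limma-voom (limma 3.58.1), other fold limits, 2 groups only, each library left out and the replicate number as a block. Removal of length and GC trends and of ribosomal RNA genes was chosen after the data were seen.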

Additional observations from a re-analysis of the deposited data

How the results depend on the processing

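The steps of C10orf10, TOX2, KIAA1755 and CDCA7L kept their direction in every alternative. With only the 2 doses in the fit the TOX2 step was -0.68 and outside the limits on p and fold used for all genes. The KIAA1755 step was outside them with 2 groups only (-0.98), with limma-voom (-0.98) and with the replicate block (-0.98). Same-numbered libraries did not deviate together (correlations -0.11 to 0.11), so the replicate numbers were not taken as pairs, and the block moved no count of calls by over 1.5 times. The step near 0 changed sign for CTNNAL1 with no filter (-0.0041) and with length and GC trends removed (-0.043). For GRK6 it did so with RLE scaling (0.0042), upper-quartile scaling (0.024), a 1 CPM filter (0.0095), 2 groups only (0.0053), DESeq2 (0.0031), length and GC trends removed (0.045) and ribosomal RNA genes left out (0.00089). With 1 library left out, steps ranged from -0.44 to -0.02 for C10orf10, -0.85 to -0.60 for TOX2, -1.17 to -0.74 for KIAA1755, -0.030 to 0.057 for CTNNAL1, -0.32 to -0.21 for CDCA7L and -0.055 to 0.023 for GRK6.

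Counts of genes called moved most with the fold limit. With no limit, 954 genes were lower and 722 higher at 5 µM, 2947 lower and 2687 higher at 10 µM, and 908 lower and 471 higher at 10 µM against 5 µM. At 2-fold these were 132 and 185, 755 and 641, and 119 and 88. Among relatives and neighbours, the counts were 9 lower and 2 higher at 5 µM and 17 lower and 7 higher at 10 µM with no limit, and 0 lower at 5 µM and 2 lower and 1 higher at 10 µM with 2-fold. With 2 groups only, 729 were lower and 591 higher at 5 µM, and 165 lower and 101 higher between doses, where DESeq2 called 401 higher. Leaving out 1 library gave 283 to 666 lower and 197 to 575 higher at 5 µM, 1472 to 1879 lower and 1051 to 1564 higher at 10 µM, and 258 to 572 lower and 118 to 320 higher between doses. The cause of these moves was not tested. C10orf10 had 28 to 47 counts per treated library, and whether depth sets its wide interval was not tested.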
